A study of Rattus norvegicus with 6 samples.

Results

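The genes described here are 10 markers of endothelial identity, named by their symbols (Pecam1, Cdh5, Emcn, Nos3, Esam, Erg, Egfl7, Robo4, Cldn5 and Sox17). The rule used the symbols alone. Of the 33509 genes in the count table, 9 rows carry one of these symbols, 8 of them with counts, and all 8 passed the filter on low counts. The libraries came from myocardial tissue of Sprague-Dawley rats. The XHT group was an acute myocardial infarction model given XHT, which the series title names as Xinhuitong, and the MOD group was the same infarction model alone, with 3 libraries each. All 6 libraries thus share the infarction. Neither dose, age of the rats, interval since infarction nor region of the heart is stated, nor whether each library came from 1 animal, so p-values measure the spread between these libraries, which may be technical.

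Endothelial cells line every vessel of the heart and are held together by adherens and tight junctions. VE-cadherin (Cdh5) and PECAM-1 (Pecam1) seal the contacts between neighbouring cells, claudin-5 (Cldn5) belongs to their tight junctions, and ESAM (Esam) is an immunoglobulin-family adhesion molecule of the same contacts. Endomucin (Emcn) is a mucin-like sialoprotein of the luminal surface, best known from capillaries and veins, where it limits leukocyte adhesion. The enzyme eNOS (Nos3) makes the vasodilator nitric oxide, EGFL7 (Egfl7) is a secreted matrix-bound factor of growing vessels, and ROBO4 (Robo4) is a receptor that stabilises vessels. ERG (Erg), an ETS factor, and SOX17 (Sox17), an SRY-box factor of arterial endothelium, are transcription factors that maintain the endothelial programme.

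The 250 bases upstream of the start of Emcn and Nos3 are shown because these are the 2 genes that passed the test, in opposite directions. They are RefSeq sequences of the GRCr8 build, with Emcn on the plus strand at chr2:228564289-228564538 and Nos3 on the minus strand at chr4:11706582-11706831. Capitals mark the ETS motif AGGAAG and the SOX motif ACAAT, each searched on both strands, so that CTTCCT and ATTGT are the same motifs read from the other strand. The motifs do not overlap one another in either window.
Emcn: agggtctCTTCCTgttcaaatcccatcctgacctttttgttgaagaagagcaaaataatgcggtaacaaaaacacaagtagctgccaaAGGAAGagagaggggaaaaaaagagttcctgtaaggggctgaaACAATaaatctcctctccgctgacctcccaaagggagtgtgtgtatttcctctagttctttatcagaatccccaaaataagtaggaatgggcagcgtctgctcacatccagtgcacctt
Nos3: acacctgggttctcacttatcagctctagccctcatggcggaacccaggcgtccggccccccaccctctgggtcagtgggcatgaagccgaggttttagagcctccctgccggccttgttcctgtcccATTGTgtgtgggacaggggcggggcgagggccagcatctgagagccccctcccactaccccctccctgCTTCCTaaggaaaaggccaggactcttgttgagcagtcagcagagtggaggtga
The Emcn window held 2 ETS motifs and 1 SOX motif, and the Nos3 window 1 of each. RefSeq gave 7 such windows for 6 of the 10 genes (Emcn, Nos3, Erg, Robo4, Cldn5 and, with 2 starts, Egfl7), of which 5 held the ETS motif and 5 the SOX motif. Of all 33469 rat windows of this length, 29.5% held the ETS motif and 30.0% the SOX motif. A match describes these letters and is not a binding site.

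Egfl7 also carries a small RNA known from endothelium. In GRCr8 the interval of Egfl7, chr3:29802481-29814966, contains miR-126a on the same strand, and its mature arms are shown because counts of Egfl7 report only the polyadenylated host transcript and not these products. The capitals mark the seed, bases 2 to 8.
rno-miR-126a-3p: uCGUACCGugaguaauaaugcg
rno-miR-126a-5p: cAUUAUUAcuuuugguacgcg

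No row of the table carried the symbol Pecam1, so this gene was not analysed here. Cldn5 had a row, on chromosome 11 at 86356294 to 86357718 on the minus strand (gene positions are those of the deposited table, and its build is not named). It was listed at 0 counts in all 3 XHT and all 3 MOD libraries. A count of 0 allows up to 3 counts, or 0.188 to 0.204 CPM (counts scaled to library size, with TMM factors between libraries) in XHT and 0.148 to 0.158 CPM in MOD, for reads assigned to the row and for counting error only. The whole interval of Cldn5 lies within that of Cdc45, a replication factor gene, which spans 86329012 to 86358453 on the plus strand. Cdc45 had 51, 28 and 96 counts in XHT 1, 2 and 3 and 118, 118 and 78 counts in MOD 1, 2 and 3. How reads in the shared interval were assigned was not tested, so the 0 is a property of the row and not a level of the claudin-5 transcript.

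Total counts lay between 17283657 and 17724689 in XHT and between 16550007 and 17638782 in MOD. The groups were not uniform. The summed CPM of 11 cardiomyocyte markers was 65500, 39720 and 60860 in XHT 1, 2 and 3, against 2638, 2284 and 25450 in MOD 1, 2 and 3, so the label of myocardial tissue held in every library, and MOD 3 stood apart from MOD 1 and MOD 2. Of the tested genes, 12.4% were higher and 16.1% lower in XHT, 28.5% in all, with the edgeR quasi-likelihood fit and a threshold of 0.05 on p-values that were Benjamini-Hochberg adjusted over 14488 genes.

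The question was whether the endothelial identity genes differed between infarcted hearts with and without XHT. By the same test, Nos3 rose, Emcn fell, and the other 6 tested genes did not pass. That is 1 of 8 in each direction, or 2 of 8 in all, against the 28.5% of all tested genes. The median absolute log2 fold change was 0.44 for the 8 genes and 0.62 for all tested genes, and 7 of the 8, against 67.6% of all tested genes, differed by less than 1 on the log2 scale. In 3 of the 8 genes, the XHT and MOD values did not overlap: Nos3 and Sox17, which lay above MOD in every XHT library, and Emcn, which lay below. Values of XHT lay wholly above those of MOD for 24.7% of all tested genes and wholly below for 26.6%. In bulk tissue, fewer cells of a type and less RNA per cell cannot be told apart, which holds for every gene below.

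**Figure D1:**
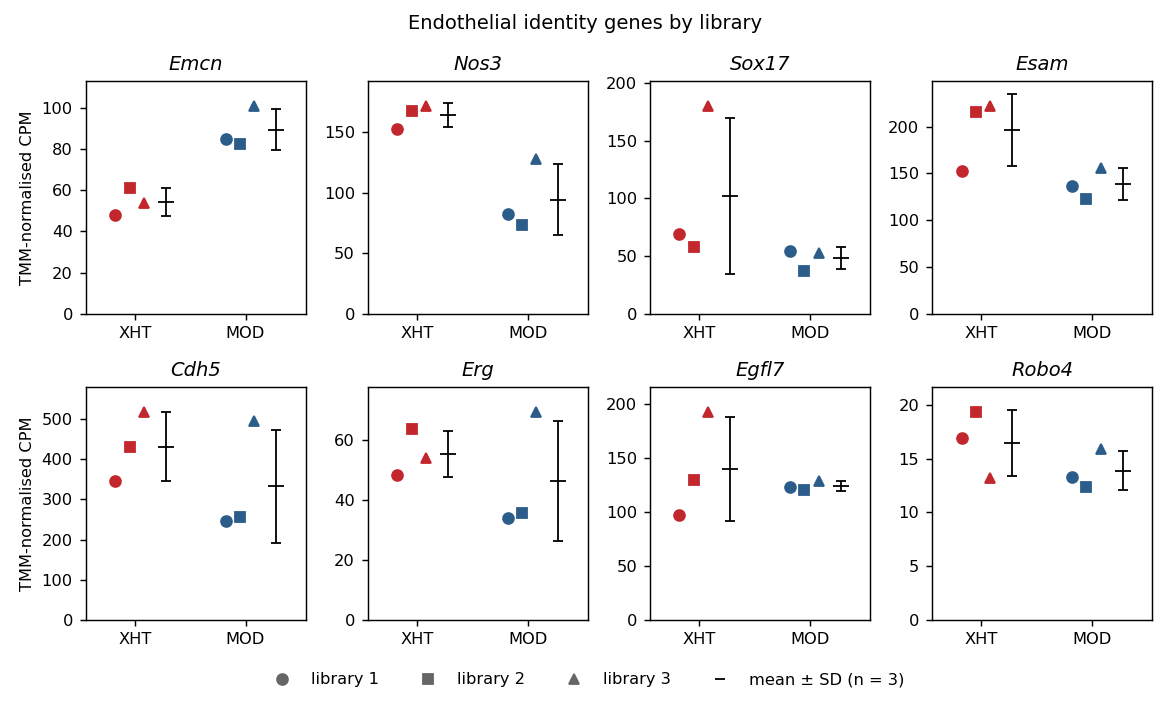
TMM-normalised CPM of the 8 endothelial identity genes with counts, by library; XHT libraries are at the left and MOD libraries at the right of each panel, marker shape gives the library number, and bars are mean ± SD (n = 3). Emcn lies at 47.9 to 61.2 CPM in XHT, below its 82.6 to 101 CPM in MOD, and Nos3 lies at 153 to 172 CPM in XHT, above its 73.4 to 128 CPM in MOD.

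Emcn, on chromosome 2 at 242634399 to 242714182 on the plus strand, was the 1 identity gene that fell. It stood at 47.9, 61.2 and 53.7 CPM in XHT 1, 2 and 3, against 85.0, 82.6 and 101 CPM in MOD 1, 2 and 3. The highest XHT library lay below the lowest MOD library, and no library stood far from its group. The means were 54.3 ± 6.69 CPM in XHT and 89.5 ± 10.02 CPM in MOD (SD, n = 3 each), a ratio of 0.606. The log2 fold change was -0.72 ± 0.17 (SE), with an adjusted p of 0.0260 in the edgeR fit. In fits that each left out 1 library, it stayed between -0.81 and -0.61 and passed without MOD 3 or XHT 2, while leaving out XHT 1 gave an adjusted p of 0.106 by edgeR, XHT 3 one of 0.0886, MOD 1 one of 0.0789 and MOD 2 one of 0.0714.

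Nos3, on chromosome 4 at 7320668 to 7342410 on the minus strand, rose. Its level was 153, 168 and 172 CPM in XHT 1, 2 and 3 and 82.0, 73.4 and 128 CPM in MOD 1, 2 and 3. The XHT libraries lay close together above all of MOD, and MOD 3 was the nearest to them. Means were 164 ± 10.1 CPM in XHT and 94.4 ± 29.2 CPM in MOD (SD, n = 3 each), a ratio of 1.74. Its log2 fold change was 0.80 ± 0.25 (SE), with an adjusted p of 0.0493 in the edgeR fit, close to the threshold. Without MOD 3 it was 1.09, with an adjusted p of 0.00253, and without any other single library it lay between 0.65 and 0.86 with adjusted p-values from 0.0904 to 0.161. Nos3 shares 362 bases with Atg9b on the other strand, which had 3, 4 and 8 counts in XHT 1, 2 and 3 and 4, 3 and 1 counts in MOD 1, 2 and 3, beside 2295 to 2670 counts of Nos3 in XHT and 1486 to 2482 in MOD. In the authors' deposited table, the adjusted p was 0.00907 for Emcn (log2 fold change -0.69), 0.0166 for Nos3 (0.83) and 0.0526 for Sox17 (1.13).

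The junction gene Cdh5, on chromosome 19 at 1023683 to 1074365 on the minus strand, was the most counted member. It had 347, 429.6 and 517 CPM in XHT 1, 2 and 3, against 247, 256 and 495 CPM in MOD 1, 2 and 3. MOD 3 lay among the XHT libraries, and the groups overlapped. The log2 fold change was 0.38 ± 0.35 (SE; adjusted p = 0.426 in the edgeR fit), and without MOD 3 it was 0.80, with an adjusted p of 0.0261. Esam, on chromosome 8 at 39997875 to 40008809 on the plus strand, had 152, 216 and 222 CPM in XHT 1, 2 and 3 and 137, 122 and 156 CPM in MOD 1, 2 and 3. XHT 1 fell short of MOD 3, and both other XHT libraries lay above all of MOD. Its log2 fold change was 0.51 ± 0.225 (SE), with an adjusted p of 0.123 in the edgeR fit.

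Of the transcription factors, Erg followed the pattern of Cdh5. Erg, on chromosome 11 at 35646116 to 35749594 on the minus strand, had 48.4, 63.8 and 54.2 CPM in XHT 1, 2 and 3 and 34.0, 35.8 and 69.4 CPM in MOD 1, 2 and 3, so that MOD 3 was the highest of all 6. Its log2 fold change was 0.26 ± 0.30 (SE; adjusted p = 0.529 in the edgeR fit), and without MOD 3 it was 0.68, with an adjusted p of 0.0180. The number of Cdh5 counts per Erg count was 7.17, 6.73 and 9.55 in XHT 1, 2 and 3 and 7.25, 7.15 and 7.13 in MOD 1, 2 and 3. This ratio varied less between the MOD libraries than either gene did. Sox17, on chromosome 5 at 14890408 to 14895907 on the plus strand, had 69.3, 57.4 and 180 CPM in XHT 1, 2 and 3 and 54.5, 37.3 and 52.7 CPM in MOD 1, 2 and 3. XHT 3 stood apart from every other library, and XHT 2 was 57.4 CPM beside 54.5 CPM in MOD 1. Its log2 fold change was 1.09 ± 0.44 (SE; adjusted p = 0.0965 in the edgeR fit), and without XHT 3 it was 0.41, with an adjusted p of 0.251.

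Egfl7, on chromosome 3 at 4034921 to 4043936 on the plus strand, varied among XHT libraries more than among MOD libraries. It had 97.3, 130 and 193 CPM in XHT 1, 2 and 3, against 123, 120 and 129 CPM in MOD 1, 2 and 3. XHT values lay on both sides of MOD. Its log2 fold change was 0.17 ± 0.27 (SE; adjusted p = 0.635 in the edgeR fit). The sign turned without XHT 3, where the log2 fold change was -0.12. Robo4, on chromosome 8 at 39878955 to 39890942 on the plus strand, was the least counted of the 8, with 254, 308 and 194 counts in XHT 1, 2 and 3 and 253, 251 and 309 counts in MOD 1, 2 and 3. That was 16.9, 19.3 and 13.2 CPM in XHT and 13.3, 12.4 and 15.9 CPM in MOD, with groups that overlapped (log2 fold change 0.25 ± 0.21 SE; adjusted p = 0.392 in the edgeR fit).

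Single libraries set how many genes of any kind were called. Leaving out XHT 1, the edgeR fit called 0.0535% of all genes it tested, leaving out XHT 2 it called 24.0%, and leaving out XHT 3 it called 2.90%. Leaving out MOD 1 the share was 3.42%, leaving out MOD 2 it was 5.41%, and leaving out MOD 3 it was 46.2%. By direction, 3487 of 14960 genes were higher and 3421 lower without MOD 3. Of 15005 genes, 1472 were higher and 2135 lower without XHT 2. Counts of every list below stand beside these totals, and the lists were chosen with earlier results of these data known. Without MOD 3, 4 of the 8 identity genes were called: Nos3, Cdh5 and Erg rose and Emcn fell. Without XHT 2, Emcn alone was called. Without XHT 1, XHT 3, MOD 1 or MOD 2, edgeR called 0 of the 8. At an unadjusted p under 0.05, Emcn was lower in each of these 4 fits. At that threshold 3 genes were higher without XHT 1, 1 without XHT 3 and 0 without MOD 1 or MOD 2. The share of all genes past the unadjusted threshold is not given here. Unadjusted counts, here and for the lists below, thus cannot be set against all genes.

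Scaling between libraries bore on the direction of 4 of the genes. With libraries scaled to their total counts, the median log2 fold change of all tested genes was -0.42, against -0.02 with TMM, and 6.38% of tested genes were higher and 29.8% lower. On that scale the log2 fold change was -0.01 for Cdh5, -0.12 for Erg, -0.23 for Egfl7 and -0.13 for Robo4, and 0.12 for Esam, 0.67 for Sox17 and 0.41 for Nos3. Emcn alone of the 8 was called, with a log2 fold change of -1.11 and an adjusted p of 0.00786 in the edgeR fit, and the adjusted p of Nos3 was 0.189. Mitochondrial genes took 27.4%, 29.8% and 27.1% of counts in XHT 1, 2 and 3 and 22.9%, 15.6% and 22.8% in MOD 1, 2 and 3. Without them the log2 fold change of Nos3 was 0.80, with an adjusted p of 0.0485 in the edgeR fit, and Emcn was also called.

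**Figure D2:**
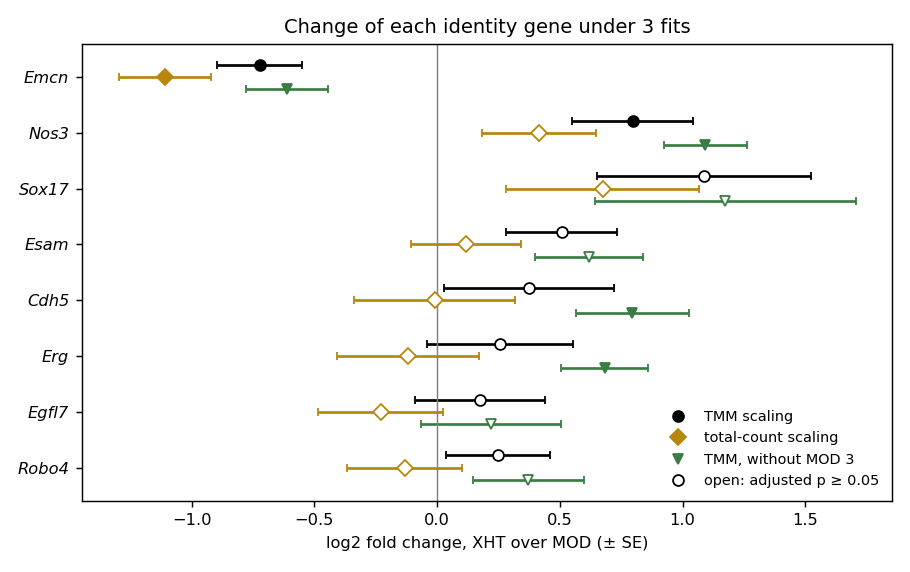
Log2 fold change of each tested identity gene, XHT over MOD, with SE bars, under TMM scaling, total-count scaling and TMM scaling without MOD 3; filled symbols passed an adjusted p of 0.05. Emcn lies below 0 and Nos3, Sox17 and Esam above 0 in all 3 fits, whereas Cdh5, Erg, Egfl7 and Robo4 lie below 0 with total-count scaling only.

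Counts of one identity gene relative to another in the same library do not depend on that scaling. Emcn stood apart from the rest of the set by this measure: its ratio to each of the other 7 genes did not overlap between the groups, whereas 2 of the 21 ratios among those 7 did not overlap, both with Nos3. Nos3 had 3.19, 2.74 and 3.20 counts per count of Emcn in XHT 1, 2 and 3, against 0.965, 0.888 and 1.26 in MOD 1, 2 and 3. All XHT libraries lay above all MOD libraries, by 1.56 on the log2 scale between the group means. Erg had 1.01, 1.04 and 1.01 counts per count of Emcn in XHT 1, 2 and 3, against 0.4005, 0.433 and 0.687 in MOD 1, 2 and 3, and the XHT libraries nearly coincided. For each of the 9 ratios without overlap the two-sided exact permutation p was 0.1, the smallest that 3 against 3 can give, and 0.311 after Benjamini-Hochberg adjustment over the 28 ratios. The 28 ratios share 8 genes and are not independent. A count ratio to each of these 7 genes that was lower in every XHT library was found for 16.0% of the tested genes outside the 7, so Emcn was one of many genes with this pattern.

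**Figure D3:**
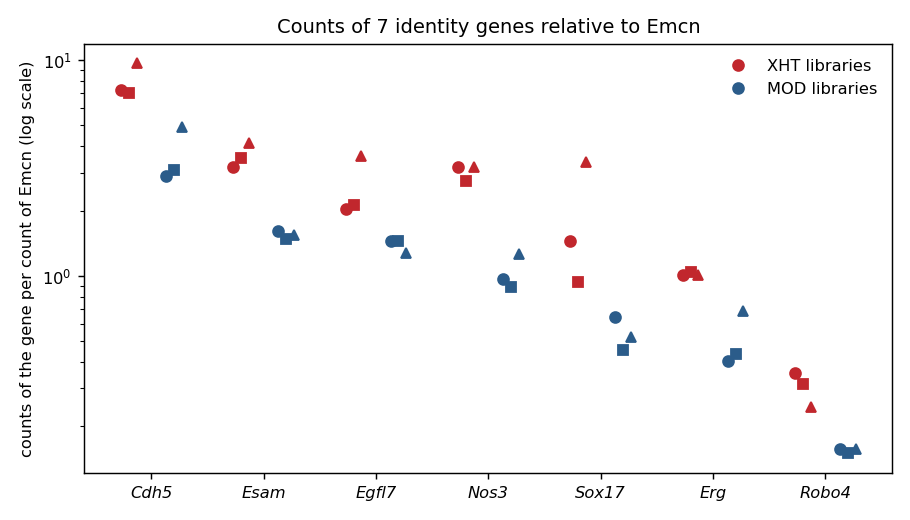
Counts of 7 identity genes per count of Emcn in the same library, on a log scale, with XHT libraries at the left and MOD libraries at the right of each gene and circles, squares and triangles for libraries 1, 2 and 3. Every gene has higher ratios in all 3 XHT libraries than in any MOD library, for Esam 3.18 to 4.14 in XHT and 1.48 to 1.61 in MOD.

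As shares of the summed counts of the 8 genes, Emcn made up 4.77% ± 0.828 in XHT and 10.3% ± 1.31 in MOD, and Nos3 14.4% ± 2.09 in XHT and 10.5% ± 0.604 in MOD (SD, n = 3 each). Neither pair of shares overlapped between groups. Cdh5 held the largest mean share in both groups, 37.2% ± 0.361 in XHT and 36.5% ± 5.91 in MOD, and the share of Erg was 4.87% ± 0.904 in XHT and 5.09% ± 0.860 in MOD.

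Levels can be compared between genes only per length, for which the authors' deposited FPKM (counts per kilobase of gene length, scaled between libraries) were used. Cdh5, Esam and Egfl7 led in both groups. In XHT they averaged 107 ± 21.9, 97.1 ± 19.4 and 96.0 ± 34.1 FPKM, and in MOD 80.3 ± 33.6, 66.6 ± 7.80 and 83.0 ± 2.51 FPKM (SD, n = 3 each), and these neighbours overlapped within each group. Emcn was close behind them in MOD, at 62.7 ± 6.68 FPKM, with values that overlapped those of Esam. In XHT, at 38.9 ± 4.70 FPKM, it was below all values of these 3 genes. Sox17 ranged from 24.5 to 78.0 FPKM in XHT and from 15.8 to 22.7 FPKM in MOD. Nos3 averaged 30.4 ± 2.01 FPKM in XHT and 17.1 ± 5.18 FPKM in MOD, and Erg 23.0 ± 3.15 FPKM in XHT and 18.8 ± 7.98 FPKM in MOD. The values of Nos3 and Erg did not overlap each other in XHT and overlapped in MOD. Robo4 was the lowest, at 5.01 ± 0.901 FPKM in XHT and 4.12 ± 0.513 FPKM in MOD, and its values did not overlap those of any other of the 8 genes in either group.

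Of 12 genes of cardiac capillaries, 6 rose and no other passed, beside 12.4% of all tested genes that were higher. The median log2 fold change was 1.46, against -0.02 over all tested genes and 0.32 over the 8 identity genes. Log2 fold changes were positive for 10 of the 12 and negative for Meox2 (-0.38 ± 0.25 SE) and Fabp5 (-0.03 ± 0.20). Gpihbp1, which carries lipoprotein lipase to the capillary lumen, had 134, 124 and 156 CPM in XHT 1, 2 and 3, against 17.5, 10.2 and 46.0 CPM in MOD 1, 2 and 3 (log2 fold change 2.49 ± 0.52 SE; adjusted p = 0.0191 in the edgeR fit). Cd36, a fatty acid transporter that cardiomyocytes also express, rose with a log2 fold change of 2.51 ± 0.52 (SE). Lpl, the lipase itself, rose with one of 2.32 ± 0.68. It had 3864, 2933 and 3495 CPM in XHT 1, 2 and 3, against 413, 254 and 1398 CPM in MOD 1, 2 and 3. Rgcc, a cell cycle regulator, had a log2 fold change of 1.99 ± 0.51. In each of these 4 genes MOD 3 was the MOD library nearest to XHT. The same held for the summed cardiomyocyte markers, and which cells these transcripts came from was not tested. Without MOD 3, 9 rose, without XHT 2, 3, without MOD 2, 1, and with scaling to total counts, 4. On all 6 libraries, 8 rose with DESeq2's Wald test and 7 with limma-voom. Genes of any kind that were higher numbered 2668 and 2210 in these tests, against 1792 in the main fit. EdgeR called 0 of the 12 without XHT 1, XHT 3 or MOD 1, where 7, 7 and 6 were higher at an unadjusted p under 0.05.

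Of 10 tested genes of veins and inflamed endothelium, 5 fell and no other passed, beside 16.1% of all tested genes that were lower. The median log2 fold change was -1.20, against -3.55 for the fibroblast markers and -1.24 for the macrophage and monocyte markers. Which cells these transcripts came from was not tested. Plvap, the protein of the diaphragms of endothelial pores, had 3.32, 15.9 and 4.97 CPM in XHT 1, 2 and 3, against 54.4, 67.2 and 18.7 CPM in MOD 1, 2 and 3 (log2 fold change -2.53 ± 0.69 SE; adjusted p = 0.0352 in the edgeR fit). Vcam1, a leukocyte adhesion molecule, had 9.17, 12.0 and 10.7 CPM in XHT 1, 2 and 3 and 64.5, 103 and 21.3 CPM in MOD 1, 2 and 3, with no overlap. The log2 fold change was -1.44 ± 0.24 (SE) for Nrp2, a co-receptor of semaphorins and growth factors, -2.66 ± 0.51 for Sele, an adhesion molecule of activated endothelium, and -0.95 ± 0.26 for Icam1, another leukocyte ligand. Without MOD 3, 7 fell and 1 rose, without XHT 2, 5 fell, and without MOD 1 or MOD 2, 2 fell. EdgeR called 0 of the 10 without XHT 1 or XHT 3, where 5 and 6 were lower at an unadjusted p under 0.05.

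The other endothelial lists moved in both directions, as did all tested genes, of which 12.4% were higher and 16.1% lower in the main fit, 28.5% in all. Of 26 further pan-endothelial surface genes, 3 rose and 1 fell. With DESeq2's Wald test 6 rose and 1 fell, and with limma-voom 5 rose and 1 fell. Both tests also called more genes of any kind higher than the main fit did, as given above. Ptprb, the phosphatase that acts on VE-cadherin and TIE2, had 728, 600 and 889 CPM in XHT 1, 2 and 3, against 49.5, 55.7 and 233 CPM in MOD 1, 2 and 3 (log2 fold change 2.71 ± 0.64 SE; adjusted p = 0.0251 in the edgeR fit). Flt1, a VEGF receptor, had a log2 fold change of 2.10 ± 0.51 (SE), Adgrf5, an adhesion G protein-coupled receptor, 2.03 ± 0.55, and Tspan18, a tetraspanin, -1.67 ± 0.19. Without MOD 3, 11 rose, and without XHT 2, 3. EdgeR called 0 higher without XHT 1, XHT 3, MOD 1 or MOD 2, where 6, 5, 4 and 3 were higher at an unadjusted p under 0.05. Tspan18 was not called without XHT 1. On the total-count scale 3 of the 26 rose and 3 fell. Of 17 transcription factors, 3 rose and 2 fell. With scaling to total counts 2 rose and 4 fell, and without MOD 3, 5 rose and 2 fell. Log2 fold changes were 1.84 ± 0.49 (SE) for Epas1, a hypoxia-inducible factor, 1.96 ± 0.53 for Foxo1, a forkhead factor, -1.25 ± 0.25 for Lyl1, a helix-loop-helix factor, and -1.07 ± 0.23 for Elk3, an ETS factor. Of 14 arterial genes, 1 rose and 1 fell. These were Notch4, an endothelial Notch receptor, with a log2 fold change of 1.02 ± 0.21, and Unc5b, a netrin receptor, with -0.73 ± 0.21. Without MOD 3, 6 arterial genes rose and 1 fell, and with scaling to total counts 1 rose and 5 fell. EdgeR called 0 genes of the transcription factor and arterial lists without XHT 1, XHT 3, MOD 1 or MOD 2, where 1 to 6 of a list were higher and 1 or 2 lower at an unadjusted p under 0.05.

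Partners of single identity genes were read from lists of the same kind. Beside the counts that follow, 12.4% of all tested genes were higher and 16.1% lower in the main fit, 28.5% in all. Of 20 tested genes listed as junction partners of VE-cadherin and claudin-5, 5 rose and 1 fell. Ptprb rose, as did Jam3, a junctional adhesion molecule (log2 fold change 0.85 ± 0.19 SE), and Marveld2 (2.33 ± 0.64). The others that rose were Cdh2, another cadherin, named after its values were seen (1.08 ± 0.30), and Cldn12, which is counted again below. Ocln, the tight junction protein occludin, fell (-1.59 ± 0.28). Marveld2 and Ocln were near the low end of detection. Marveld2 lay at 1.13 to 1.73 CPM in XHT and 0.0988 to 0.566 CPM in MOD. Ocln lay at 1.57 to 2.26 CPM in XHT and 5.63 to 6.06 CPM in MOD. Of 19 tested genes of the nitric oxide pathway around eNOS, 3 fell and no other passed. These were Ddah1, Ddah2 and Arg1. Ddah1 and Ddah2 degrade an endogenous inhibitor of nitric oxide synthases (log2 fold changes -0.87 ± 0.25 and -1.24 ± 0.28 SE). Arg1 competes for arginine (-2.68 ± 0.65). It was also low, at 0.7485 to 3.70 CPM in XHT and 5.865 to 19.4 CPM in MOD. Of 8 tested Slit and Robo genes, 4 fell. The ligands Slit2 and Slit3 fell (log2 fold changes -2.06 ± 0.36 and -1.58 ± 0.43 SE), as did the receptor Robo2 (-2.23 ± 0.50) and Unc5b, which binds ROBO4. Robo2 was also low, at 0.864 to 2.38 CPM in XHT and 3.96 to 10.03 CPM in MOD. Of 7 tested relatives of Egfl7 and Cldn5, Cldn12, a claudin, rose (log2 fold change 0.62 ± 0.18 SE) and Cldn4 fell, with 0, 0 and 0.272 CPM in XHT 1, 2 and 3 and 1.95, 2.27 and 2.52 CPM in MOD 1, 2 and 3. With scaling to total counts, 2 junction partners rose and 1 fell, 7 nitric oxide pathway genes and 7 Slit and Robo genes fell, and of the Egfl7 and Cldn5 relatives 0 rose and 2 fell. Without MOD 3, 10 junction partners rose. EdgeR called 0 junction partners and 0 nitric oxide pathway genes without XHT 1, XHT 3, MOD 1 or MOD 2, where 5 or 6 junction partners were higher and 3 to 5 nitric oxide pathway genes lower at an unadjusted p under 0.05. The Slit and Robo genes that fell numbered 3 without MOD 3, 2 without XHT 2 and 1 without MOD 2. EdgeR called 0 of them without XHT 1, XHT 3 or MOD 1, where 4 or 5 were lower at an unadjusted p under 0.05. Among the Egfl7 and Cldn5 relatives, edgeR called 0 without XHT 1, MOD 1 or MOD 2, where 1 was higher and 1 or 2 were lower at an unadjusted p under 0.05, and without XHT 3 it called 1 lower.

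**Figure D4:**
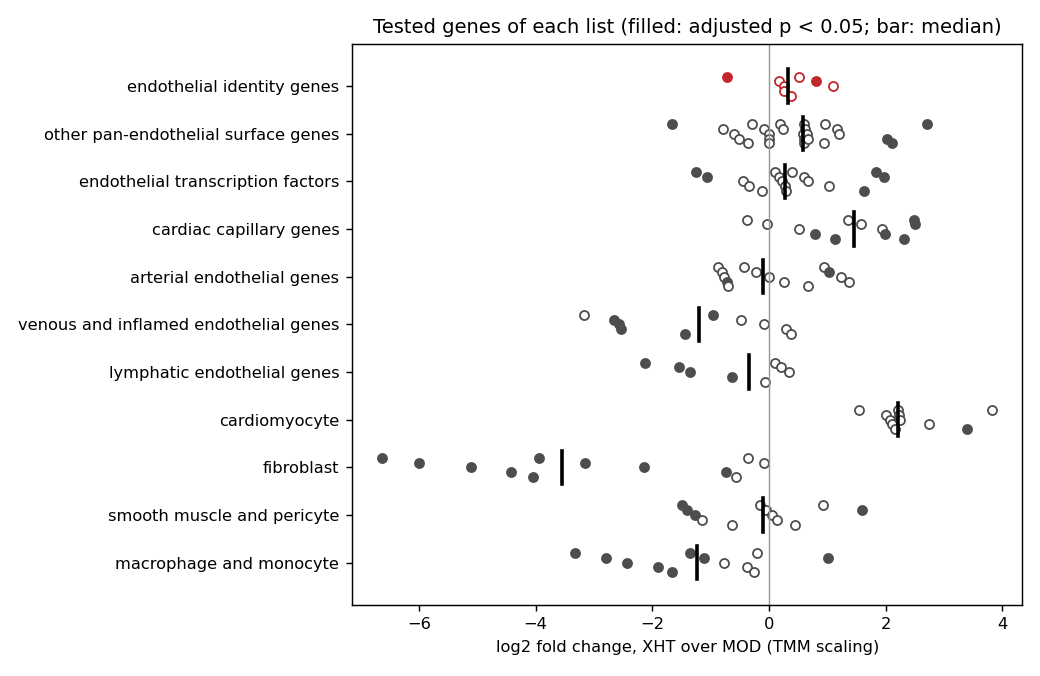
Log2 fold change of each tested gene, XHT over MOD with TMM scaling, by list; filled points passed an adjusted p of 0.05 and bars are medians. The 8 identity genes lie between -0.72 and 1.09, while the fibroblast median is -3.55, the cardiomyocyte median 2.21, the capillary median 1.46 and the venous and inflamed median -1.20.

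Markers of other cell types moved beside these genes, and their part in the results was not tested. Their counts stand beside 12.4% of all tested genes that were higher and 16.1% that were lower. The 12 fibroblast markers summed to 2036 to 4967 CPM in XHT and 22700 to 62720 CPM in MOD, and 9 fell. The 12 macrophage and monocyte markers summed to 902 to 1239 CPM in XHT and 2120 to 3641 CPM in MOD, and 7 fell and 1 rose. All 11 cardiomyocyte markers had positive log2 fold changes, of which 1, Ryr2, a calcium release channel, passed in the main edgeR fit, and 11 passed without MOD 3. On all 6 libraries, 7 passed with DESeq2's Wald test, 7 with the replicate number as a block in edgeR and 6 with limma-voom. Genes of any kind that were higher in these fits numbered 2668, 2101 and 2210, against 1792 in the main fit. EdgeR called 0 cardiomyocyte markers without XHT 1, XHT 3, MOD 1 or MOD 2, where 1 to 3 were higher at an unadjusted p under 0.05. Without XHT 1 it called 0 fibroblast and 0 macrophage markers, where 8 and 7 were lower at an unadjusted p under 0.05. The fibroblast markers that fell numbered 1 without XHT 3, 2 without MOD 1 and 5 without MOD 2, and with any 1 library other than XHT 1 left out, 5 to 8 macrophage markers fell. The 12 smooth muscle and pericyte markers summed to 3308 to 4499 CPM in XHT and 2880 to 2938 CPM in MOD, and 3 fell and 1 rose. Des, the 1 that rose, was the largest part of the XHT sums, at 3172, 1601 and 1871 CPM in XHT 1, 2 and 3. It had 450, 651 and 1100 CPM in MOD 1, 2 and 3, so these sums do not show the direction of the other markers. Acta2, Tagln and Pdgfrb fell, and the median log2 fold change of the 12 was -0.10. Of 6 tested lymphocyte markers, 2 fell, with sums of all 10 at 39.4 to 54.0 CPM in XHT and 78.2 to 78.4 CPM in MOD. Platelets also carry PECAM-1 and ESAM. Of 11 platelet and megakaryocyte markers 4 were tested and 1, Pf4, fell. Gp1bb was at 0 in all libraries, and the 11 summed to 36.6 to 43.1 CPM in XHT and 43.99 to 99.7 CPM in MOD. Of 6 tested red cell genes 1 rose, Hbb, with sums of the 7 listed at 697 to 4605 CPM in XHT and 194 to 830 CPM in MOD, and of 6 tested mesothelial and epicardial genes 1 fell, Tbx18, with sums of all 9 at 36.9, 120 and 59.3 CPM in XHT 1, 2 and 3 and 87.1, 108 and 70.0 CPM in MOD 1, 2 and 3. Without XHT 2, 5 mesothelial and epicardial genes fell. Msln, a mesothelial surface protein named after its values were seen, had 0.266, 29.3 and 0.204 CPM in XHT 1, 2 and 3 and 19.1, 33.4 and 6.89 CPM in MOD 1, 2 and 3, so XHT 2 stood apart from the other XHT libraries. Hbb was also highest in XHT 2, at 1838 CPM, and edgeR called 0 red cell genes higher with scaling to total counts or without any 1 library, where 1 to 4 were higher at an unadjusted p under 0.05. For the smooth muscle and pericyte, lymphocyte, platelet and mesothelial lists, edgeR called 0 genes without XHT 1, XHT 3, MOD 1 or MOD 2, where 1 to 4 of a list were lower at an unadjusted p under 0.05. The 8 identity genes summed to 932, 1145 and 1405 CPM in XHT 1, 2 and 3 and 775, 739.6 and 1147 CPM in MOD 1, 2 and 3, and the groups overlapped, as they did for the red cell and mesothelial sums.

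**Figure D5:**
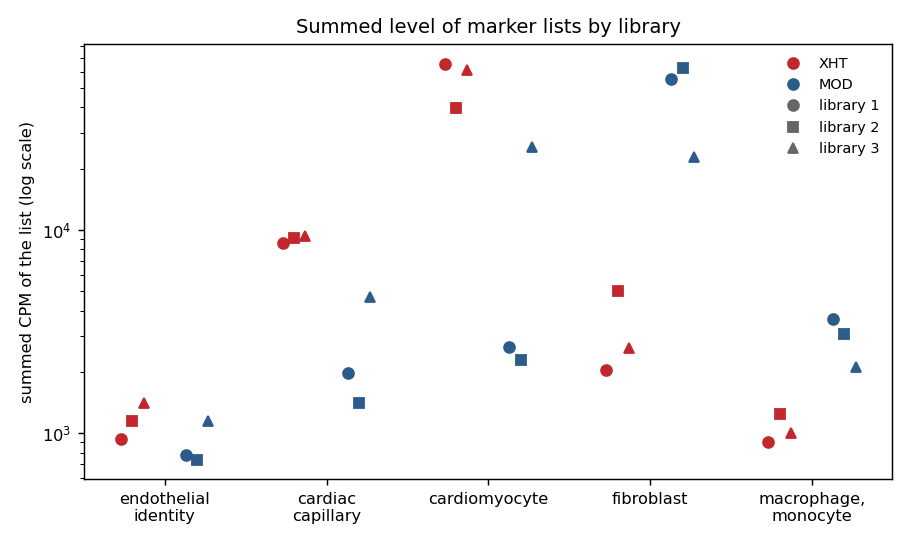
Summed CPM of the genes of 5 lists by library, on a log scale, with XHT at the left and MOD at the right of each list; marker shape gives the library number. The identity genes span 740 to 1405 CPM over all 6 libraries, the fibroblast markers 2036 to 62720 CPM and the cardiomyocyte markers 2284 to 65500 CPM, and MOD 3 lies between MOD 1 and 2 and the XHT libraries in the cardiomyocyte and fibroblast lists.

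Averaged over the 8 genes, the centred log2 CPM was -0.07, 0.18 and 0.38 in XHT 1, 2 and 3 and -0.27, -0.38 and 0.16 in MOD 1, 2 and 3. Genes whose log2 CPM over the 6 libraries was most like this profile included Map3k10, a kinase (Pearson r = 0.994), Atp1b1, a sodium pump subunit (0.990), Sepp1, selenoprotein P (0.990), and AABR07051515.1 (0.987). The 6 points share their libraries and scaling, and likeness over so few libraries is given as a description.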

How the data were processed

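RNA of rat myocardial tissue was sequenced in 6 libraries. Per the labels' protocols, polyadenylated RNA was selected and libraries carried a dUTP-marked strand and molecular identifiers. Per the submitters' processing notes, the tools were DESeq2 1.16.1, featureCounts 1.5.0-p3, HISAT2 2.0.5 and StringTie 1.3.3b, with settings, use of strand and identifiers, and build unstated. Raw counts and FPKM were deposited by the authors. In the deposited table, FPKM equal counts over gene length and 1 constant per library. The deposited group means, a signal scale, were not used. The authors' deposited log2 fold changes and p-values were used only where named.

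Counts were tested with edgeR 4.0.16 (R 4.3.3). The filter was filterByExpr, at least 10 counts and 15 in total, libraries were scaled by TMM, and XHT was set against MOD in a robust quasi-likelihood model with Benjamini-Hochberg adjustment over 14488 genes. The SE is the log2 fold change over the root of F. Log2 CPM used a prior count of 2. The fit was also run on simulated counts with the same dispersion for all genes and few changed genes, balanced in direction. That setting is simpler than these data, so the run checks the code and not the calls made here. No pair of libraries was a duplicate (chi-square per degree of freedom at least 42.6). The common biological coefficient of variation was 0.348. DESeq2 1.42.0, limma 3.58.1 and the other alternatives are listed under the dependence on processing.

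The members, the lists and the rule for named genes (all members, up to 4 called genes of each list, the 5 genes most like the members' mean profile, of which 1 is not reported here) were chosen with earlier results of these data known. Where a symbol had several identifiers, the most counted was taken.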

Additional observations from a re-analysis of the deposited data

How the results depend on the processing

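Over 14 alternatives, Emcn kept a negative and Nos3, Sox17 and Esam a positive log2 fold change. Emcn passed in 10 of them (adjusted p 0.00786 to 0.106) and Nos3 in 6 (0.00253 to 0.189). Nos3 did not pass with total counts, with no count filter (adjusted p = 0.0562), with edgeR's legacy fit (0.0534), or without MOD 1, MOD 2, XHT 1, XHT 2 or XHT 3. In the first 3 of these settings 0 of the 8 identity genes were called higher, with 0, 2 and 2 past an unadjusted p of 0.05 by edgeR. Leaving out 1 library, the number of identity genes called higher ran from 0 to 3 and lower from 0 to 1, and the number of all genes from 4 to 3487 higher and from 4 to 3421 lower. With total counts, 925 genes were higher and 4320 lower, where TMM gave 1792 and 2336. Signs turned with total counts for Cdh5 (-0.0108), Erg (-0.12), Egfl7 (-0.23) and Robo4 (-0.13), and without XHT 3 for Egfl7 (-0.115, where leaving out XHT 1 gave 0.3917). The cause was not tested. With DESeq2 size factors, without mitochondrial genes, with DESeq2's Wald test and with limma-voom, Emcn and Nos3 passed as in the main result.

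Whether equal library numbers pair the libraries could not be settled with 3 libraries a group. The deviations from group means of XHT and MOD libraries with the same number correlated at -0.07, 0.25 and 0.12. Those with different numbers correlated at -0.24 to 0.15. The highest value was that of MOD 2 with XHT 2, while XHT 2 was also the library with which MOD 1 correlated best (0.10). With the replicate number as a block, 2101 genes were higher and 2309 lower, and Emcn (-0.72, adjusted p = 0.0368) and Nos3 (0.84, adjusted p = 0.0416) passed, both by edgeR. The alternative written for FPKM alone was not run, since counts were deposited. With 3 libraries a group and single libraries moving the number of calls this far, a gene that did not pass is not shown to be equal in the groups. Robo4, with 194 to 309 counts in each library, has the widest counting error of the 8.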

Other observations

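Lymphatic and endocardial genes were also counted, beside 12.4% of all tested genes that were higher and 16.1% that were lower. Of 8 lymphatic genes, 4 fell and no other passed. Those that did not pass were Prox1, given below, Lyve1 (log2 fold change 0.35 ± 0.22 SE), Mmrn1 (0.11 ± 0.21) and Reln (-0.07 ± 0.22). Ccl21, the chemokine that draws cells into lymphatic vessels, had 33.1, 60.8 and 37.6 CPM in XHT 1, 2 and 3, against 253, 216 and 104 CPM in MOD 1, 2 and 3 (log2 fold change -2.12 ± 0.39 SE; adjusted p = 0.0151 in the edgeR fit). The log2 fold change was -1.36 ± 0.19 (SE) for Stab1, a scavenger receptor that macrophages also carry, -0.63 ± 0.15 for Flt4, the receptor of lymphatic growth factors, and -1.54 ± 0.45 for Pdpn, podoplanin, which fibroblasts also carry. Prox1, the transcription factor of lymphatic identity, named after its values were seen, had 10.1, 7.16 and 6.40 CPM in XHT 1, 2 and 3 and 6.27, 5.29 and 8.90 CPM in MOD 1, 2 and 3 (log2 fold change 0.21 ± 0.30 SE; edgeR adjusted p = 0.611). Without MOD 3, 4 fell, without XHT 2, 3, without MOD 2, 2, and without MOD 1 or XHT 3, 1. EdgeR called 0 of the 8 without XHT 1, where 4 were lower at an unadjusted p under 0.05. Of 6 tested endocardial genes, 1 rose and 2 fell. Cytl1, a secreted cytokine-like protein, rose (log2 fold change 2.36 ± 0.49 SE). Hapln1, a link protein of hyaluronan matrix (-2.46 ± 0.66), and Plvap (-2.53 ± 0.69) fell. Hapln1 had only 19, 7 and 30 counts in XHT 1, 2 and 3, against 111, 64 and 226 in MOD 1, 2 and 3. EdgeR called 0 of these 6 without XHT 1, XHT 3 or MOD 1, where 1 was higher and 2 were lower at an unadjusted p under 0.05.

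In RefSeq's GRCr8 annotation, the protein-coding neighbours of Pecam1 are Tex2 and Milr1. The deposited table lists 2 loci without a gene name between these neighbours. The first, on chromosome 10 at 94850929 to 94886248 on the minus strand, had 336, 377 and 389.6 CPM in XHT 1, 2 and 3, against 216, 184 and 289 CPM in MOD 1, 2 and 3, with no overlap (log2 fold change 0.68 ± 0.25 SE; adjusted p = 0.0757 in the edgeR fit). The second, at 94901178 to 94913334, had 7.51, 5.27 and 6.81 CPM in XHT 1, 2 and 3 and 0.896, 1.24 and 3.34 CPM in MOD 1, 2 and 3 (log2 fold change 1.84 ± 0.51 SE; edgeR adjusted p = 0.0371). The table gives neither locus a name, and none is given here.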
